A study of Mus musculus with 10 samples.

Results

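Immediate early transcription factors were examined in the terminal ileum of male C57BL/6JJmsSlc mice after repeated social defeat. The members were 10 genes, Fos, Fosb, Fosl2, Jun, Junb, Jund, Egr1, Ier2, Atf3 and Nr4a1, chosen by name from the probe sets that carry a single gene symbol. They are 10 of the 18193 genes with 1 symbol in the table, and 9 of them were among the 13662 genes tested. Stressed mice (n = 5) underwent subchronic and mild social defeat, in which they were placed with a resident Slc:ICR male on 10 days in the afternoon. Contact was 5 min on day 1, counted from the first bite, and 0.5 min shorter each day, which left 0.5 min for day 10. Control mice (n = 5) were unstressed. Mice of both groups were 7 weeks old per the labels, were first housed singly, ate the AIN-93G diet and went without food for 3 h before dissection, and the labels name no transgene or drug. The time between the last contact and the removal of the tissue, which matters for genes whose mRNA lasts minutes to hours, is not given in the sources used here.

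Immediate early genes are transcribed within minutes of a signal because their activators, among them serum response factor and CREB, are already present in the resting cell. Fos and Jun family proteins share a basic leucine zipper, pair with each other and bind DNA as the factor AP-1. Fos proteins need a Jun partner, whereas Jun proteins can also pair among themselves. Egr1 and Nr4a1 are a zinc finger factor and an orphan nuclear receptor of the same early wave, and in the gut these genes respond to feeding, growth factors, injury and nervous input.

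Each mouse was measured on 1 array, and values are log2 probe set values after RMA, a method that gives all arrays a common distribution. A value of 1 more on this scale is a doubling of brightness, and levels of different probe sets cannot be set against each other. The array of control mouse 1 stood apart. It correlated across genes with the others at 0.918 to 0.947, while the other 9 correlated at 0.975 to 0.995. Of 10 ileal enterocyte markers it was the lowest array for 9, with the bile acid binding protein Fabp6 at 7.88 against at least 13.88 elsewhere, and it was the highest array for 4 of 9 large intestine markers, with the carbonic anhydrase Car1 at 14.17. Stressed mouse 4 also had Car1 at 13.32, against at most 7.41 in the other 8 arrays, but its Fabp6 was at 13.95. Stressed mouse 1 had the highest log2 ratio of 3' to 5' probe sets of Actb and Gapdh, a sign of RNA quality, at 1.13 against 0.45 to 0.70. Results are therefore given for 10 arrays and without control mouse 1. The ileum was measured as a whole, so fewer cells of a type and less RNA per cell cannot be told apart.

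The promoters of Fos and Jun are shown because these genes had the smallest p-values among the members with 10 arrays and differed in opposite directions. Both stretches are the 150 bases before the start of the RefSeq gene on GRCm38.p6, read 5′ to 3′ on the gene's strand. Fos lies at chr12:85473890-85477274, with its stretch at chr12:85473740-85473889 on the plus strand. Jun lies at chr4:95049036-95052222, with its stretch at chr4:95052223-95052372 on the minus strand. Of the other members, Junb, Jund and Ier2 lie on chromosome 8, Atf3 on chromosome 1, Fosl2 on 5, Fosb on 7, Nr4a1 on 15 and Egr1 on 18.
Fos: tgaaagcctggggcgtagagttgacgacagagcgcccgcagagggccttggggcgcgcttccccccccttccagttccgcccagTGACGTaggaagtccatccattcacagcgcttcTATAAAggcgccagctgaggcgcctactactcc
Jun: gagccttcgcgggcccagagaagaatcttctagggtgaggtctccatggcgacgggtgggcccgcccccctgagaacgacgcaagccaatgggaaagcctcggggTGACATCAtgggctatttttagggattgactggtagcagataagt

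Capitals in Fos mark TGACGT, the left part of the cAMP response element, at -66 to -61, and the TATA box letters TATAAA at -33 to -28. In Jun they mark TGACATCA, the variant AP-1 element of this promoter, at -45 to -38. RefSeq promoters were found for 8 members (Egr1 and Ier2 had no entry), and the 250 bases before each start were searched on both strands. TGACGT was present in 2 of the 8 (Fos and Atf3) and in 6.47% of all 32851 promoters, TGACATCA in 1 of the 8 and in 2.93%, and TATAAA in 1 and in 12.4%. The letters GCGNGGGCG, bound by Egr proteins, were in 3 of the 8 (Fosl2, Fosb and Nr4a1) and in 4.70% of all promoters. The palindromic cAMP response element TGACGTCA (1.55% of promoters), the AP-1 letters TGANTCA (6.75%), the CArG box (1.47%) and the Nr4a1 letters AAAGGTCA (1.34%) were in 0 of the 8 windows. The letters TGACGT also occur within TGACGTCA. These matches describe letters in a window and were not tested for binding. Sites farther upstream, and the promoters of Egr1 and Ier2, were not searched.

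No member passed the threshold over all genes. With 10 arrays 0 of the 9 tested members, and 0 of 13662 genes (0%), were called by limma, with a Benjamini-Hochberg adjusted p below 0.05. Leaving out control mouse 1 gave 0 of 9 members, against 109 of 13662 genes (0.798%). The calls among all genes without that mouse were 0.264% higher and 0.534% lower. At an unadjusted p under 0.05 in limma, 1 member was higher (Fos) and 1 lower (Jun) with 10 arrays, against 7.82% of all genes, or 3.86% higher and 3.96% lower. Without control mouse 1 these were 2 higher (Fos and Egr1) and 2 lower (Jun and Atf3), against 18.0% of all genes, or 11.4% higher and 6.57% lower. In either comparison 7 members had differences above 0, against 51.0% of all genes with 10 arrays and 56.3% without control mouse 1. The median difference of the 9 members was 0.11 with 10 arrays and 0.08 without control mouse 1, beside 0.0031 and 0.03 over all genes. No member separated the groups completely, which 2.28% of all genes did with 10 arrays (1.16% higher and 1.12% lower) and 7.24% without control mouse 1 (4.52% higher and 2.72% lower).

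**Figure D1:**
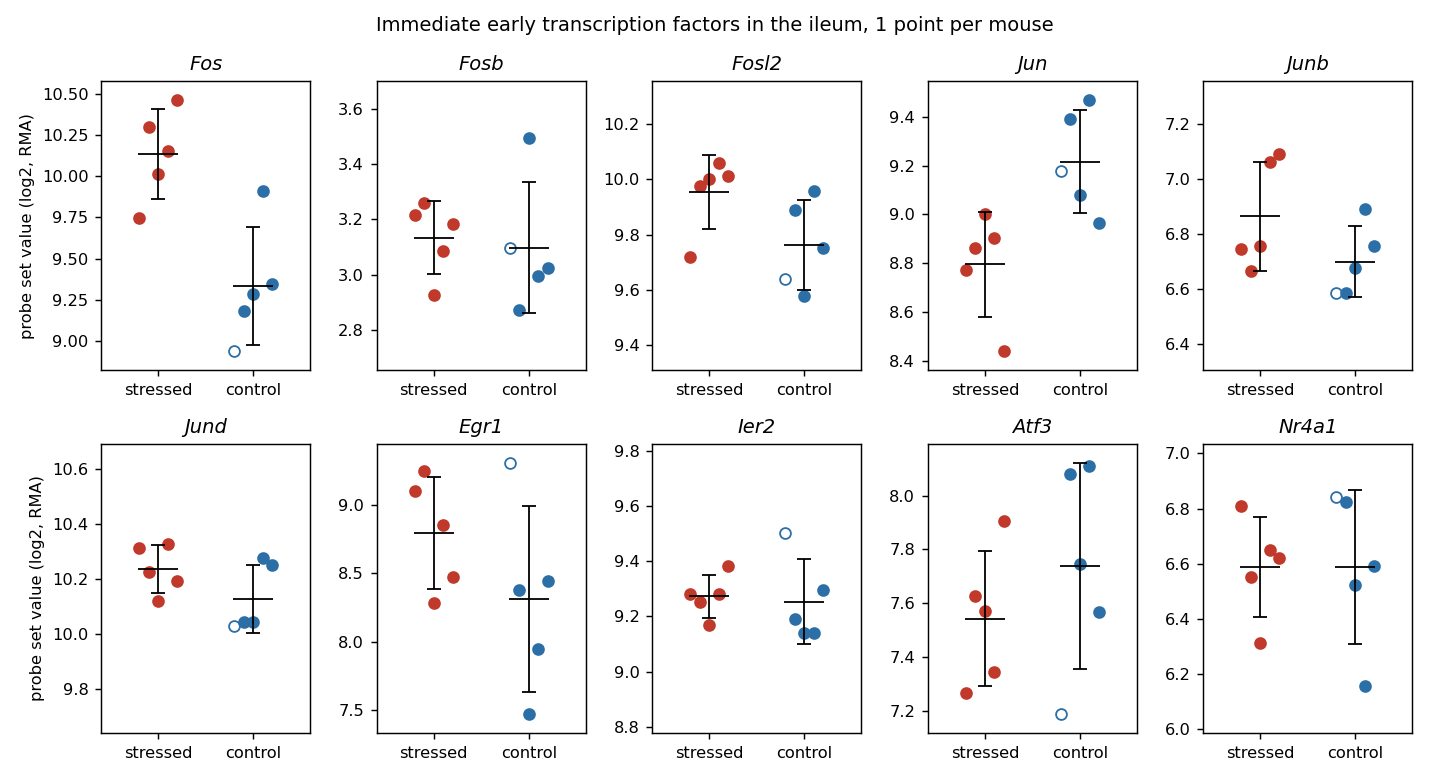
Probe set values of the 10 members (log2, RMA) in each of 5 stressed and 5 control mice. Points are mice, the open point is control mouse 1, bars are the mean and SD over 5 mice, and axes differ between panels but span at least 1 log2 unit. Stressed mice were mostly above controls for Fos and below them for Jun, while Ier2, Nr4a1 and the dim Fosb overlapped widely.

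Among the Fos family, Fos itself had the largest difference with 10 arrays. Fos encodes the partner that gives AP-1 dimers their stability and is the classic mark of recent cell activation. It was at 9.75, 10.30, 10.02, 10.15 and 10.46 in stressed mice and at 8.94, 9.18, 9.28, 9.91 and 9.35 in control mice. Stressed mouse 1 lay below control mouse 4, and apart from this pair all stressed mice were above all controls. Fos averaged 10.13 ± 0.27 (SD, n = 5) in stressed mice, against 9.33 ± 0.36 (SD, n = 5) in control mice. The control mean was 9.43 ± 0.33 (SD, n = 4) without mouse 1. The difference was 0.80 ± 0.18 (SE) with 10 arrays, a 1.74-fold level with a 95% confidence interval of 0.41 to 1.20 on the log2 scale (limma adjusted p = 0.303). Without control mouse 1 it was 0.70 ± 0.17 (SE, limma adjusted p = 0.0677). Leaving out control mouse 4 as well gave 0.86 with a limma adjusted p of 0.0358, the 1 setting tried in which a member was called, and leaving out stressed mouse 4 in place of it gave 0.70 (limma adjusted p = 0.157).

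Fosl2, which encodes the longer-lived Fos relative Fra-2, differed less. It was at 9.72, 9.97, 10.00, 10.06 and 10.01 in stressed mice and at 9.64, 9.89, 9.58, 9.96 and 9.75 in control mice. Stressed mice 2 to 5 were above every control mouse, and stressed mouse 1 was below controls 2, 4 and 5. The difference was 0.19 ± 0.10 (SE, limma adjusted p = 0.697) with 10 arrays and 0.16 ± 0.10 (SE, limma adjusted p = 0.415) without control mouse 1. Its second, dimmer probe set gave -0.01 ± 0.10 and -0.04 ± 0.10 (SE) in a fit of all probe sets, so the probe sets of this gene did not share a direction. Fosb, a further Fos relative known from repeatedly activated neurons, was at 2.92 to 3.26 in stressed and at 2.87 to 3.50 in control mice. All these values are under the filter floor of 4.15, and Fosb was therefore not in the fit of genes. In the fit of all 34945 probe sets with 1 symbol, Fosb had a difference of 0.04 ± 0.12 (SE, limma adjusted p = 0.957) with 10 arrays, and leaving out control mouse 1 gave 0.04 ± 0.13 (SE, limma adjusted p = 0.914).

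Jun, the main activating partner of Fos, was lower in stressed mice. It was at 8.77, 8.86, 9.004, 8.90 and 8.44 in stressed mice and at 9.18, 9.39, 9.08, 9.47 and 8.96 in control mice. The groups overlapped only in that control mouse 5 was below stressed mouse 3. Jun averaged 8.80 ± 0.21 (SD, n = 5) in stressed and 9.22 ± 0.21 (SD, n = 5) in control mice. The difference was -0.42 ± 0.13 (SE), or 0.748 of the control level, with 10 arrays (limma adjusted p = 0.429) and -0.43 ± 0.13 (SE, limma adjusted p = 0.134) without control mouse 1. The second probe set of Jun was lower too, with a difference of -0.25 ± 0.13 (SE) over 10 arrays and of -0.22 ± 0.13 (SE) when control mouse 1 was left out.

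Junb and Jund differed in the opposite direction to Jun, by less. Junb encodes a Jun protein that can oppose Jun in proliferation control. It was at 6.75, 6.67, 6.76, 7.06 and 7.09 in stressed mice and at 6.58, 6.59, 6.68, 6.89 and 6.76 in control mice. Stressed mice 4 and 5 were above every control, and the other 3 lay among them. The difference was 0.16 ± 0.11 (SE, limma adjusted p = 0.772) with 10 arrays and 0.14 ± 0.11 (SE, limma adjusted p = 0.533) without control mouse 1. Jund encodes the Jun protein that resting cells hold at a steady level. It was at 10.12 to 10.33 in stressed and at 10.03 to 10.28 in control mice, with a difference of 0.11 ± 0.08 (SE, limma adjusted p = 0.794) with 10 arrays and 0.08 ± 0.08 (SE, limma adjusted p = 0.625) without control mouse 1. A second Jund probe set lay under the floor in the mean over arrays and gave -0.11 ± 0.13 (SE) over 10 arrays and -0.21 ± 0.11 (SE) without control mouse 1.

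**Figure D2:**
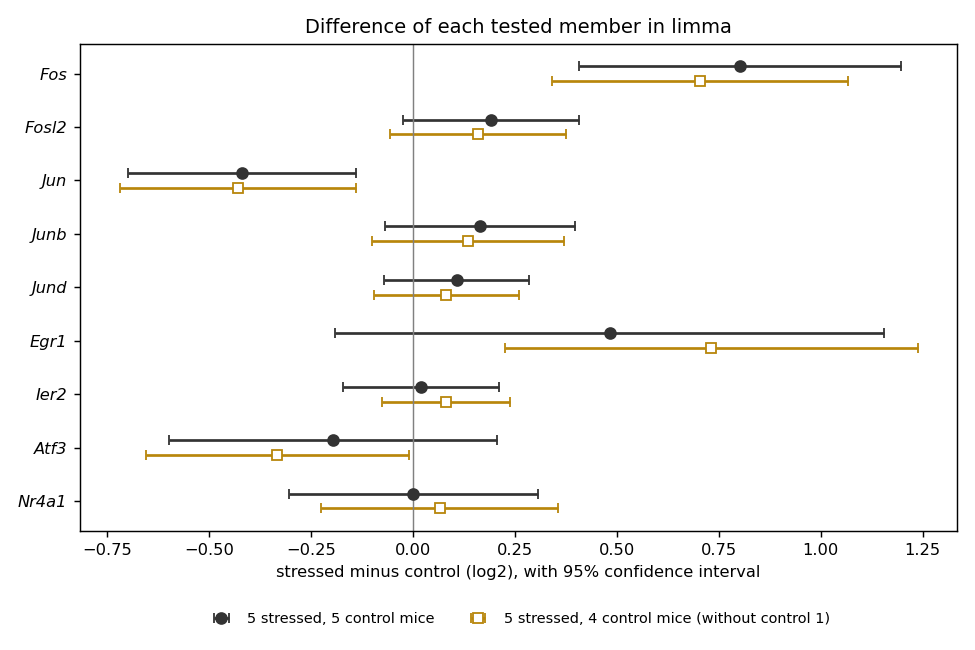
Stressed minus control difference of the 9 tested members on the log2 scale, with 95% confidence intervals from limma, for 10 arrays (filled circles) and without control mouse 1 (open squares). The intervals of Fos and Jun leave out 0 in both comparisons, those of Egr1 and Atf3 do so only without control mouse 1, and none passed after adjustment over 13662 genes.

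Egr1, a growth-responsive zinc finger factor, had the widest spread of the members. It was at 9.11, 9.25, 8.29, 8.86 and 8.47 in stressed mice and at 9.31, 8.38, 7.48, 7.95 and 8.45 in control mice. Control mouse 1 was the highest of all 10 arrays. The other 4 controls were all below 4 of the 5 stressed mice, with stressed mouse 3 among them. Egr1 averaged 8.79 ± 0.41 (SD, n = 5) in stressed mice, against 8.31 ± 0.68 (SD, n = 5) in all control mice and 8.06 ± 0.45 (SD, n = 4) without mouse 1. The difference was 0.48 ± 0.31 (SE, limma adjusted p = 0.770) with 10 arrays and 0.73 ± 0.23 (SE, limma adjusted p = 0.140) without control mouse 1. Control mouse 3 also weighed on this value, since the 10-array difference without it was 0.27.

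Atf3, a basic leucine zipper repressor induced by cell stress, was lower in stressed mice on average and again depended on control mouse 1. It was at 7.27, 7.63, 7.57, 7.34 and 7.91 in stressed mice and at 7.19, 8.08, 7.75, 8.11 and 7.57 in control mice. Control mouse 1 was the lowest of all arrays, and control mice 2 and 4 were above every stressed mouse. The difference was -0.20 ± 0.18 (SE, limma adjusted p = 0.826) with 10 arrays and -0.33 ± 0.15 (SE, limma adjusted p = 0.263) without control mouse 1. With the 3' to 5' ratio as a covariate these became -0.07 and -0.21.

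Ier2 and Nr4a1 had the smallest differences. Ier2 encodes a short nuclear protein of the early response. It was at 9.28, 9.25, 9.17, 9.28 and 9.38 in stressed mice and at 9.50, 9.19, 9.14, 9.14 and 9.30 in control mice, with control mouse 1 highest of all. The difference was 0.02 with a 95% confidence interval of -0.17 to 0.21 with 10 arrays, and 0.08 with an interval of -0.08 to 0.24 without control mouse 1. Nr4a1 encodes the orphan receptor Nur77. It was at 6.81, 6.55, 6.31, 6.65 and 6.62 in stressed mice and at 6.84, 6.83, 6.52, 6.15 and 6.59 in control mice, a range that held all stressed values. Its difference was 0.0012 with a 95% confidence interval of -0.30 to 0.31 with 10 arrays, and 0.07 with an interval of -0.23 to 0.36 without control mouse 1. These intervals leave out a difference as large as the 0.80 measured for Fos, and smaller ones remain within them.

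Fos and Jun were also compared within each array. The log2 ratio of the Fos to the Jun probe set was 0.97, 1.44, 1.01, 1.25 and 2.02 in stressed mice and -0.24, -0.21, 0.20, 0.44 and 0.38 in control mice. All 5 stressed mice were above all 5 controls, by a gap of 0.53. Of the 36 pairs of members, 4 had ratios that separated the groups. These were Fos with Jun, Atf3 and Fosl2, and Fosl2 with Jun, and the gap was wider, 0.64, for Fos with Atf3. The share among pairs of all genes was not computed, so this count has nothing to be set against. The pairs reuse members whose differences are given above, with 1 probe set per gene, and are not separate results. The ratio of Fos to Jun was picked after the values were seen and has no test, and the ratio of the 2 brightnesses is not a ratio of molecules.

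**Figure D3:**
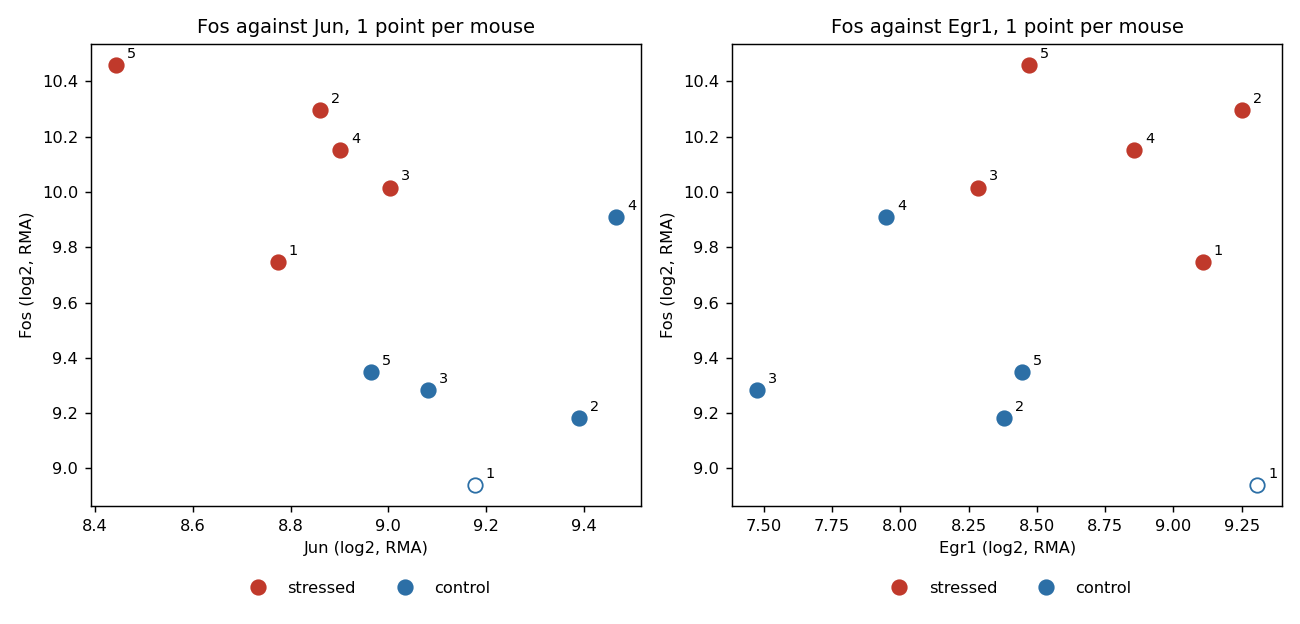
Fos against Jun (left) and Fos against Egr1 (right) on the log2 scale, 1 point per mouse, numbered as in the sample titles, with control mouse 1 as an open point. Stressed mice lie mostly to the upper left of the controls for Fos and Jun. On single axes, stressed mouse 1 is below control mouse 4 for Fos, and stressed mouse 3 is to the right of control mouse 5 for Jun. For Egr1, control mouse 1 pairs the highest Egr1 value, 9.31, with the lowest Fos value, 8.94.

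Across mice no pair of members was correlated after adjustment. Of 36 pairs, 0 had a Benjamini-Hochberg adjusted permutation p under 0.05 (2-sided), with either 10 or 9 arrays, and 4 and 2 had an unadjusted one. Fos and Fosl2 had a Pearson r of 0.80 over 10 arrays (permutation p = 0.0086, adjusted p = 0.280) and a Spearman rho of 0.83 (permutation p = 0.00476, adjusted p = 0.171). Their r was 0.87 without the 2 arrays farthest from the median of Fos, control mice 1 and 2, and 0.74 over the 9 arrays without control mouse 1 (exact permutation p = 0.0244, adjusted p = 0.363). Jun and Ier2 had an r of -0.84 over these 9 arrays (exact permutation p = 0.00387, adjusted p = 0.139) and a rho of -0.83 (exact permutation p = 0.00827, adjusted p = 0.166), but r was -0.41 with 10 arrays. Their r over 9 arrays was -0.60 without control mouse 4 and stressed mouse 5. Fos and Egr1 had an r of 0.11 over 10 arrays and 0.47 without control mouse 1 (permutation p = 0.754 and exact permutation p = 0.199). With 5 mice a group no correlation within a group was computed. These r values pool both groups and so mix the difference between groups with variation between mice. Of all tested genes outside the members, 6 are named that followed the mean of the 9 centred members most closely over the 9 arrays. They were Cdip1, Fech, Zfp160, Cntln, Yod1 and Xrn1, with r of 0.93 to 0.94. Over 10 arrays r was 0.18 for Fech and 0.93 for Yod1 and Xrn1. These genes were picked for the highest r among all those tested, over few arrays, so their r has no test. The members were centred but not scaled, so those with a wide spread, such as Egr1, weigh more in the mean. Of the 36 pairs of members 19 had an r above 0 over the 9 arrays, so likeness to the mean is not likeness to each member.

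Other immediate early transcription factors were divided in direction. Of 24 listed genes 22 were tested, and with 10 arrays 11 were higher, 11 lower and 0 called. Without control mouse 1, 9 were higher and 13 lower, with 2 called, both lower, against 0.534% of all genes called lower. Their median difference was 0.0021 with 10 arrays and -0.04 without control mouse 1. The called genes were Egr4 and Ier5. Egr4, a relative of Egr1, was at 5.04, 5.12, 5.02, 5.11 and 5.02 in stressed mice and at 5.11, 5.41, 5.66, 5.50 and 5.32 in control mice, all controls but mouse 1 being above all stressed mice. When control mouse 1 was left out, Egr4 fell by 0.41 on the log2 scale (SE 0.08, limma adjusted p = 0.0445). Its difference over 10 arrays was -0.34 ± 0.10 (SE, limma adjusted p = 0.407). Ier5, a nuclear protein of the same family as Ier2, was at 8.29 to 8.38 in stressed mice and at 8.52 to 9.01 in controls 2 to 5, with control mouse 1 at 7.91. Leaving out that mouse, Ier5 fell by 0.50 ± 0.10 (SE, limma adjusted p = 0.0445), and with 10 arrays its difference was -0.31 ± 0.18 (SE, limma adjusted p = 0.749). Egr4 kept its call in 3 of 15 other settings without control mouse 1 and Ier5 in 4 of 16. Egr4 was too dim for the setting that left out the lowest 60 percent of probe sets, under 5.54. Nfil3, a repressor with roles in lymphocytes and in clock output, averaged 5.44 ± 0.60 (SD, n = 5) in stressed mice, against 6.54 ± 0.59 (SD, n = 5) in control mice (limma adjusted p = 0.407, and 0.0648 without control mouse 1). Cebpd, an acute phase factor, averaged 8.38 ± 0.13 (SD, n = 5) in stressed mice and 8.90 ± 0.37 (SD, n = 5) in control mice (limma adjusted p = 0.441, and 0.163 without control mouse 1).

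Early response genes for signalling proteins and secreted products were mixed. Of 51 listed symbols, which include older names of some of the same genes, 44 were tested. With 10 arrays 30 were higher, 14 lower and 0 called, and without control mouse 1 27 were higher and 17 lower. The median difference was 0.08 with 10 arrays and 0.07 without control mouse 1. The 1 gene called without control mouse 1 was Dusp2, a nuclear phosphatase of MAP kinases that is abundant in lymphocytes. It was called lower, as were 0.534% of all genes. Dusp2 was at 5.30, 5.37, 5.22, 5.27 and 5.14 in stressed mice and at 5.02, 5.58, 5.57, 5.61 and 5.66 in control mice. Control mouse 1 lay below all stressed mice, and the other controls above them. Leaving out control mouse 1, Dusp2 fell by 0.35 ± 0.07 (SE, limma adjusted p = 0.0484), a call kept in 3 of 15 other settings, and with 10 arrays its difference was -0.23 ± 0.12 (SE, limma adjusted p = 0.702). Dusp2 too was dim and was not tested in the setting that left out the lowest 60 percent of probe sets. T cell markers were lower beside Dusp2, in 6 of 7 tested genes in either comparison. Without control mouse 1, 1 of them, Cd7, was called, against 0.534% of all genes called lower. The difference of Cd7 was -0.39 ± 0.08 (SE, limma adjusted p = 0.0459) there, and -0.33 ± 0.09 (SE, limma adjusted p = 0.385) over 10 arrays. The mean of the 7 T cell markers was at 5.64 to 5.78 in stressed mice and at 5.80 to 6.15 in control mice, and its part in the Dusp2 value was not tested. Ptgs2, the inducible cyclooxygenase, averaged 6.16 ± 0.26 (SD, n = 5) in stressed mice and 5.36 ± 0.54 (SD, n = 5) in control mice (limma adjusted p = 0.407, and 0.100 without control mouse 1). Phlda1, an early gene of growth factor signalling, averaged 8.76 ± 0.41 (SD, n = 5) in stressed and 8.22 ± 0.27 (SD, n = 5) in control mice (limma adjusted p = 0.520, and 0.168 without control mouse 1). Socs3, the inhibitor of cytokine receptors, had a difference of -0.81 ± 0.62 (SE) with 10 arrays. Control mouse 1 was at 6.65, below every other array, and leaving it out gave -1.43 ± 0.36 (SE, limma adjusted p = 0.0829).

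**Figure D4:**
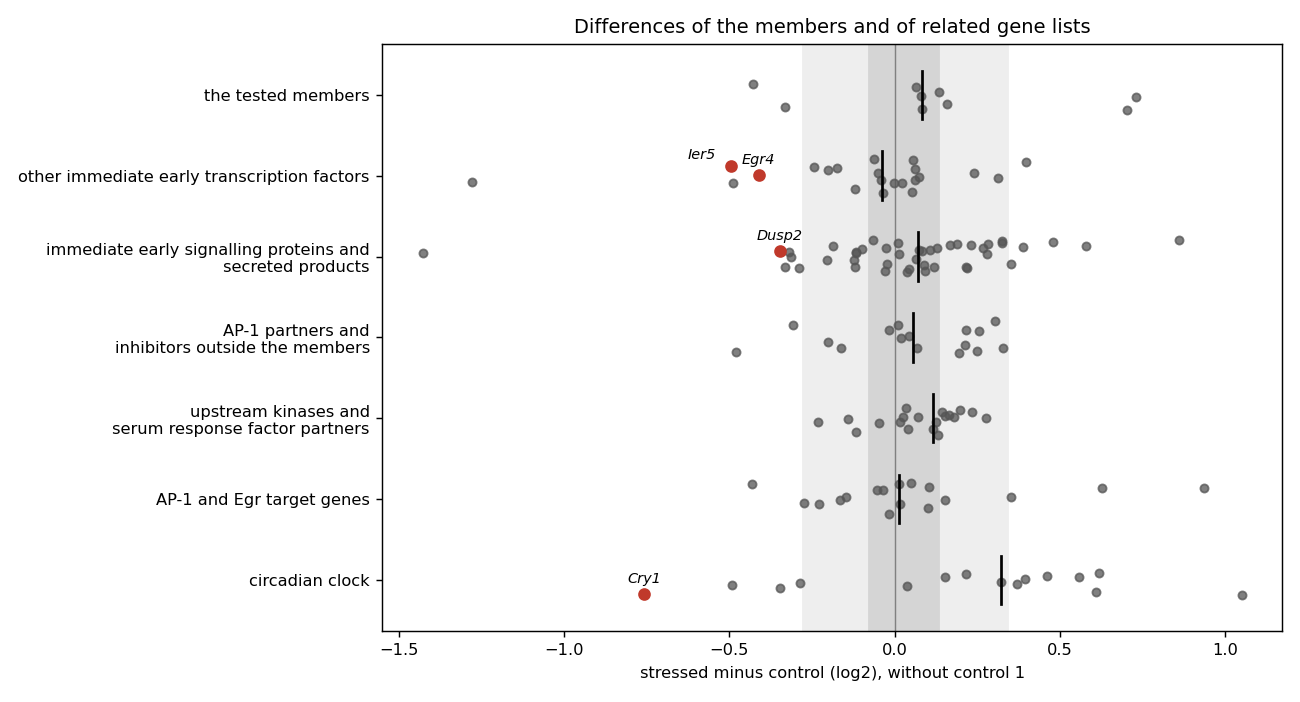
Stressed minus control differences without control mouse 1 (log2) for the 9 tested members and the 6 related gene lists, 1 point per gene. Red points with names are genes called at a limma adjusted p under 0.05, black bars are list medians, and the dark and light bands span the quartiles (-0.08 to 0.13) and the 5th to 95th percentiles (-0.28 to 0.34) of all 13662 genes. Fos, at 0.70, and Egr1, at 0.73, lie above the light band, and Jun, at -0.43, and Atf3, at -0.33, lie below it.

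Partners, upstream regulators and targets had 0 called genes in either comparison. Of 19 listed symbols of AP-1 partners and inhibitors, again with an older name, 16 were tested. Of these 11 were higher and 5 lower with 10 arrays and again without control mouse 1. This list also held Ciart, which is counted among the clock genes too. Nab2, the corepressor that binds Egr1 and is induced by it, averaged 5.76 ± 0.04 (SD, n = 5) in stressed mice and 5.48 ± 0.25 (SD, n = 5) in control mice (limma adjusted p = 0.570, and 0.260 without control mouse 1). Maf, a large Maf factor that can pair with Fos and Jun, was at 12.20 to 12.39 in stressed mice and at 11.94 to 12.19 in controls 2 to 5, with control mouse 1 at 9.74. Its difference was 0.72 ± 0.40 (SE) with 10 arrays and 0.25 ± 0.08 (SE, limma adjusted p = 0.134) when that mouse was left out. Of 27 listed symbols of kinases and serum response factor partners, older names included, 19 were tested. With 10 arrays 11 were higher and 8 lower, and without control mouse 1 15 were higher and 4 lower. Map2k2, a kinase that activates ERK, averaged 9.68 ± 0.11 (SD, n = 5) in stressed and 9.51 ± 0.10 (SD, n = 5) in control mice (limma adjusted p = 0.635, and 0.373 without control mouse 1). Of 20 listed AP-1 and Egr targets 17 were tested, 11 higher and 6 lower with 10 arrays, and 9 higher and 8 lower without control mouse 1. Plau, the urokinase gene and an AP-1 target, was at 4.81, 4.78, 4.79, 4.65 and 5.01 in stressed mice and at 4.57, 4.47, 4.23, 4.52 and 4.62 in control mice, without overlap. Of all genes, 2.28% separated the groups with 10 arrays and 7.24% without control mouse 1. Plau was dim, near the filter floor of 4.15, and was not tested in the setting that left out the lowest 60 percent of probe sets. The difference of Plau was among the smallest in p of the tested targets and was named for that. Its difference was 0.33 ± 0.10 (SE, limma adjusted p = 0.407) with 10 arrays and 0.35 ± 0.10 (SE, limma adjusted p = 0.103) without control mouse 1. Mmp7, the matrix protease of Paneth cells, was at 6.01 in control mouse 1 and above 11 in all other mice. Its difference was 0.86 ± 0.97 (SE) with 10 arrays and -0.28 ± 0.09 (SE) without that mouse.

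Clock genes are given because several early genes follow the time of day. Of 16 listed genes 15 were tested, 11 of them higher and 4 lower in both comparisons. With 10 arrays 0 were called. Without control mouse 1, 1 gene, Cry1, was called lower, against 0.534% of all genes. Cry1, a repressor of the clock, was at 6.28, 6.80, 6.54, 6.19 and 6.35 in stressed mice and at 6.47, 7.48, 7.30, 7.10 and 6.89 in control mice. Leaving out control mouse 1, Cry1 fell by 0.76 ± 0.14 (SE, limma adjusted p = 0.0375), and with 10 arrays its difference was -0.61 ± 0.18 (SE, limma adjusted p = 0.425). Its call held in 7 of 16 other settings without control mouse 1. Dbp, an output factor of the clock, averaged 9.62 ± 0.64 (SD, n = 5) in stressed mice and 8.81 ± 0.79 (SD, n = 5) in control mice (limma adjusted p = 0.653, and 0.157 without control mouse 1). The part of the clock genes in the Fos, Jun and Egr1 values was not tested.

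Markers of other cells in the samples are given beside the members. Of all genes, 51.0% had differences above 0 with 10 arrays and 56.3% without control mouse 1. Smooth muscle markers averaged 9.93 to 10.89 in stressed and 10.13 to 10.52 in control mice other than mouse 1, which was at 11.41. Of 8 such markers 1 was higher and 7 lower with 10 arrays, and 4 were higher and 4 lower without that mouse. Of 6 fibroblast markers 2 were higher and 4 lower with 10 arrays, and 5 were higher and 1 lower without that mouse. Enteric neuron and glia markers were higher in 6 of 7 tested genes in either comparison, at 5.72 to 6.18 in stressed mice and at 5.51 to 5.67 in controls 2 to 5, while control mouse 1 was at 6.28, above every stressed mouse. Endothelial markers were higher in 5 of 6 with 10 arrays and in 6 of 6 without control mouse 1. Their mean was at 5.76 to 5.98 in stressed mice and 5.54 to 5.73 in controls 2 to 5, while control mouse 1 was the highest array at 6.02. Of 10 ileal enterocyte markers 7 were higher without control mouse 1, and 1 was called, against 0.264% of all genes called higher. This was the enterocyte hormone Fgf15, which rose by 1.73 ± 0.32 (SE, limma adjusted p = 0.0347). Over 10 arrays its difference was 2.41 ± 0.65 (SE, limma adjusted p = 0.373), with control mouse 1 at 3.70. Markers of B cells were lower in 4 of 4 in either comparison. Those of myeloid cells were lower in 5 of 6 with 10 arrays and in 6 of 6 without control mouse 1. The mean of the B cell markers was at 4.58 to 4.86 in stressed mice and at 4.33 to 5.18 in controls 1 to 4, while control mouse 5 stood apart at 6.36. The mean of 4 exocrine pancreas markers was at 4.71 to 4.85 in stressed mice and at 4.59 to 5.08 in controls 1 to 4, with control mouse 5 again apart at 6.24. With control mice 1 and 5 both left out, Fos had a difference of 0.68 (limma adjusted p = 0.111), Jun of -0.52 (limma adjusted p = 0.0976) and Egr1 of 0.86 (limma adjusted p = 0.113). The part of these markers in the values of the members was not tested.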

How the data were processed

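The deposited values, log2 per probe set on 10 arrays, were made with RMA by the authors, per the submitters' processing notes. Base 2 was taken from the usual RMA output and the range of values, 1.22 to 14.4. The software version of RMA is not given in the sources used here. RMA hides shifts in total RNA, and arrays carry no read depth, so the number of mice limits the precision. Targets were made from 100 ng of RNA with a 3' kit, per the labels' protocols.

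Of 45101 probe sets, 64 were controls, 34945 had 1 symbol in the platform annotation, 932 several and 9160 none. The lowest 40 percent by mean over the arrays (under 4.15) were left out, and each gene was represented by its brightest remaining probe set (13662 genes). Groups came from the sample titles, with 1 array per mouse. limma 3.58.1 in R 4.3.3 (lmFit, eBayes) was fitted across all genes, with Benjamini-Hochberg adjustment and a call at an adjusted p under 0.05. It was tested on simulated data. Permutation tests used 100000 resamples for 10 arrays and all orders for 9. SE and 95% confidence intervals are limma's, and all differences are stressed minus control on the log2 scale. The members, the lists and the rule for naming genes (the members, and up to 4 genes of each list by smallest p in each comparison, of which the text gives those it describes) were chosen with earlier results of these data known. Promoters are from RefSeq, GRCm38.p6.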

Additional observations from a re-analysis of the deposited data

Results flagged for a closer look

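Among the 20 groups of 5 values (10 members in stressed and in control mice), 1 held a sample far from the others. Fosl2 in stressed mouse 1 was at 9.72, while the nearest stressed mouse was at 9.97, a gap of 0.746 of the group's range. Chance alone flags about 1 in 20 such groups. This mouse also had the highest 3' to 5' ratio of control transcripts, 1.13, and the lowest Fos value of the stressed mice. The part of that ratio in its Fosl2 value was not tested.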

How the results depend on the processing

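Each comparison was repeated with 17 other settings (10 arrays) or 16 (without control mouse 1). Over these, Fos, Fosl2, Junb, Jund and Egr1 stayed above 0 and Jun and Atf3 below it. Fos ranged from 0.70 to 0.95 with 10 arrays (limma adjusted p 0.0627 to 0.687) and from 0.62 to 0.86 without control mouse 1 (0.0358 to 0.166), and Jun from -0.48 to -0.33 and from -0.52 to -0.32. The count of members called was 0 in all settings but 1, where it was 1 (Fos, without control mice 1 and 4), so leaving out single mice gave 0 to 1.

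With 10 arrays the count of all genes called was 2 with the mean of a gene's probe sets, 41 with array weights, and 0 to 109 when single mice were left out (109 without control mouse 1 and 2 without stressed mouse 2). Without control mouse 1, 109 became 169 with an intensity trend and robust variance together, 31 with the 3' to 5' ratio, and 6 to 154 without single further mice. Of the stressed mice, leaving out mouse 4 gave 6 calls, mouse 5 gave 14, mouse 3 gave 21 and mouse 1 gave 32. Of the controls, leaving out mouse 3 as well gave 16, mouse 2 gave 19 and mouse 4 gave 58. Correlated pairs of members numbered 0 to 1 when single mice were left out, in either comparison.

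Some differences changed sign, among them that of Mmp7, which was 0.86 with 10 arrays. With 10 arrays Nr4a1 was at -0.0082 with array weights, at -0.081 with the 3' to 5' ratio and at -0.11 to 0.071 without single mice. Without single mice Ier2 was at -0.0096 to 0.082, Nfe2l2 at -0.027 to 0.30 and Mmp7 at -0.28 to 1.17. Mmp7 was at -0.13 with array weights and Mrtfb at -0.050 with the mean of probe sets. Without control mouse 1, Nr4a1 was at -0.015 with the 3' to 5' ratio and at -0.058 to 0.17 without single mice, and Mmp10 at -0.087 to 0.085. The causes were not tested.

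The titles number the mice 1 to 5 in both groups. Deviations of same-numbered mice from their group means correlated at -0.30 to 0.28, and 3 of 10 arrays correlated best with their own number. So few values cannot show whether the numbers stand for a pairing. With the replicate block 0 genes were called with 10 arrays and 95 without control mouse 1, and 0 members in either comparison. Fos was then at 0.80 (limma adjusted p = 0.233 with 10 arrays).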
